A study of Mus musculus with 16 samples.

Results

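Hearts of 10-week-old mice lacking desmoglein-2 in the heart were compared with wild-type hearts of the same age by RNA sequencing of heart tissue. Of the 16 libraries of the series, the 8 taken at 10 weeks enter this comparison. They comprise 4 Dsg2-null libraries (genotype Dsg2-/-, described for the series as a cardiac-specific loss) and 4 wild-type libraries (Dsg2+/+), all of strain C57BL/6. In each genotype, replicates 1 and 2 came from females and replicates 3 and 4 from males. What drives the cardiac deletion is not given in the labels, and the labels do not say that libraries of a genotype came from separate animals, so p-values measure the spread between these libraries, which may be partly technical. The authors' 10-week table holds 64843 rows, of which 52625 carry an Ensembl identifier, for 52587 distinct genes. Values are FPKM (fragments scaled to transcript length and to sequencing depth), and lists of values follow the order of replicates 1 to 4.

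Desmoglein-2 is a desmosomal cadherin that joins neighbouring cardiomyocytes at the intercalated disc, the junction that also holds gap junctions and sodium channels. Loss of desmosomal proteins is a known cause of arrhythmogenic cardiomyopathy, in which cardiomyocytes die and fibroblasts deposit scar matrix in their place. Activated fibroblasts secrete collagens and matricellular proteins, which are signalling proteins of the matrix, and macrophages clear debris and release growth factors that act on fibroblasts.

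Dsg2 itself checked the labels. It measured 2.52, 2.24, 3.05 and 2.79 FPKM in Dsg2-null and 17.8, 19.5, 23.9 and 22.8 FPKM in wild-type libraries, so that the libraries of the genotypes were far apart and the null mean was 12.6% of the wild-type mean. The difference was -2.59 on the log2(FPKM + 1) scale, used for all differences here (SE 0.123, limma adjusted p = 1.1e-05). The exact two-sided permutation p over all 70 relabelings was 0.0286, the smallest that 4 against 4 libraries allow. The deposited row of Dsg2 has a blank name and was found by its identifier, ENSMUSG00000044393.

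Markers of other tissues stood apart in single libraries. Markers of airway and lung epithelium (24 genes) summed to 1724 FPKM in Dsg2-null replicate 2 and 1078 FPKM in wild-type replicate 2, both from females, against 0.698 to 3.26 FPKM in the other 6 libraries. In these libraries Scgb1a1, the secretory protein of airway club cells, measured 532 and 288 FPKM, whereas Sftpc, the surfactant protein of alveolar cells, was listed at 0 in all 8. Atrial markers (17 genes) summed to 394.1 FPKM in wild-type replicate 1 and to between 2476 and 5646 FPKM in the other libraries. Adipocyte markers (14 genes) reached 1156 FPKM in Dsg2-null replicate 2, against 296.1 to 656 FPKM elsewhere. Cardiomyocyte markers summed to 26114 to 31900 FPKM in Dsg2-null and 29669 to 32687 FPKM in wild-type libraries. By their titles, Dsg2-null replicate 2 and wild-type replicate 1 share the code ML and wild-type replicates 3 and 4 the code MPa, and what the codes stand for is not given in the labels. Counts and leading genes are therefore also given without the 2 libraries with airway signal, without wild-type replicate 1, or without all 3.

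**Figure D1:**
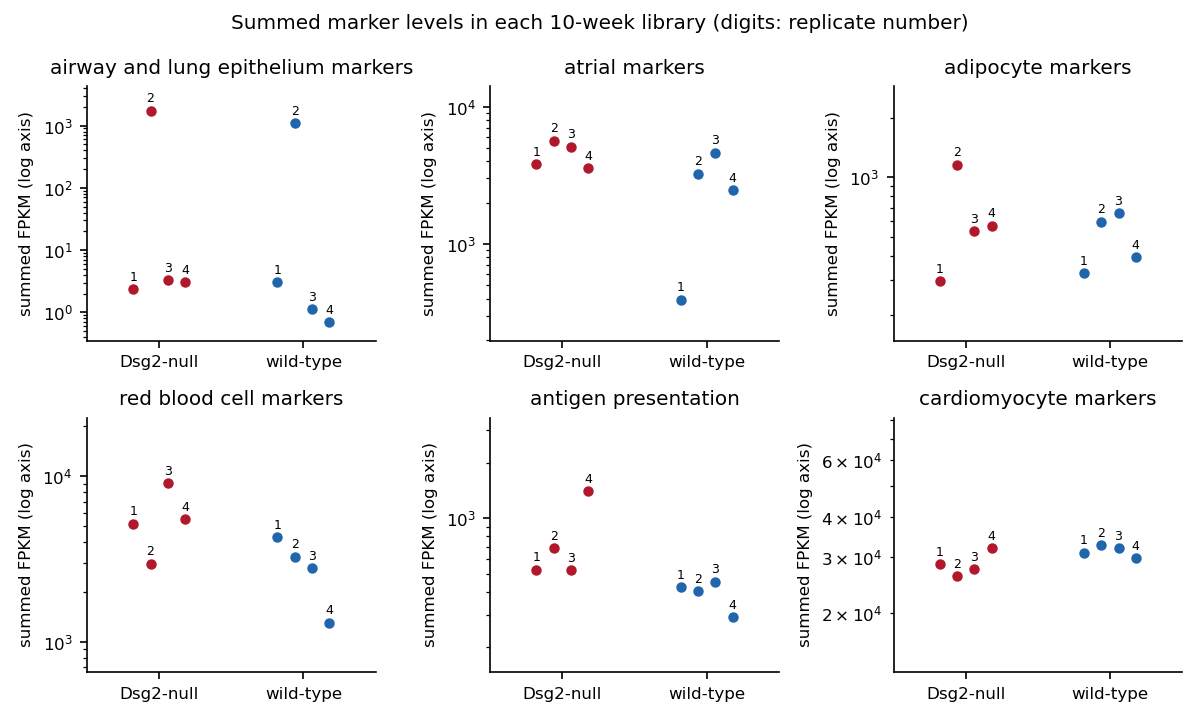
Summed FPKM (log axis) of the marker lists of other tissues and cell types in each 10-week library, with points drawn as replicate numbers and genotypes side by side. Airway markers are above 1000 FPKM only in replicate 2 of each genotype, and atrial markers are lowest in wild-type replicate 1.

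Of 12574 genes whose mean was 1 FPKM or more, 731 (5.81%) differed between genotypes at a limma adjusted p under 0.05. In Dsg2-null hearts 659 (5.24%) were higher and 72 (0.573%) were lower, and 167 of the higher and 7 of the lower differed by at least 2-fold. Genotypes did not overlap in the higher direction for 1529 genes (12.2%) and in the lower direction for 303 (2.41%). List counts below are to be read beside these shares, and several are near them. The median log2 difference over all genes was 0.10. Median-of-ratios scaling moved that median to 0.00 and the split to 402 higher (3.2%) and 152 lower (1.21%), and quantile normalization gave 344 higher and 162 lower. Leaving out any 1 library gave between 377 and 626 changed genes. The count was 381 without Dsg2-null replicate 2 and 377, 401, 462 and 395 without wild-type replicates 1, 2, 3 and 4. Without the 2 libraries with airway signal 187 genes were higher (1.5%), without wild-type replicate 1 344 (2.72%) and without all 3 52 (0.415%). Of the called genes, 728 could be tested with the remaining 5 libraries, which had also entered the full comparison. All 728 kept their sign there, and 685 had an unadjusted p under 0.05, which is a description and no independent check.

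Of 20 matricellular genes tested, 15 were higher and 0 lower, with a median log2 difference of 1.35 beside 0.10 over all genes. Spp1 (ENSMUSG00000029304, chr5:104435118-104441050, GRCm38) encodes osteopontin, a matrix cytokine made by macrophages and injured muscle, and measured 21, 32.8, 30.7 and 50.1 FPKM in Dsg2-null and 0.649, 0.502, 0.934 and 0.673 FPKM in wild-type libraries. No wild-type library reached 1 FPKM, and null replicate 4 was the highest (log2 difference 4.30, SE 0.22, limma adjusted p = 1.53e-05). Comp (ENSMUSG00000031849, chr8:70373558-70382066), a pentameric protein that organizes collagen fibrils in cartilage, tendon and scar, measured 99.5, 118, 82.6 and 48.1 FPKM in Dsg2-null and 5.46, 9.64, 6.17 and 6.47 FPKM in wild-type libraries (log2 difference 3.43, SE 0.26, limma adjusted p = 0.000379). Its lowest null value, in replicate 4, was still several-fold the highest wild-type value. Markers of cartilage were themselves uneven, with Col2a1, the collagen that defines cartilage, at 13.5, 3.45, 0.731 and 0.41 FPKM in Dsg2-null and 0, 1.44, 0 and 0 FPKM in wild-type libraries (limma adjusted p = 0.22), and their part in the Comp values was not tested. Without the 3 libraries the difference of Comp was 3.35 (limma adjusted p = 0.0146). That fit keeps Dsg2-null replicate 1, the library with the highest Col2a1 value, so it does not bear on cartilage.

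Cilp, which encodes a matrix protein of stressed fibroblasts, and Thbs4, a thrombospondin of heart and tendon, shared a pattern within the null group. Cilp measured 39.7, 72, 52.2 and 29.2 FPKM in Dsg2-null and 6.66, 3.86, 6.21 and 7.08 FPKM in wild-type libraries (log2 difference 2.78, SE 0.261, limma adjusted p = 0.000896). Thbs4 measured 15.6, 34.4, 24.1 and 11.8 FPKM in Dsg2-null and 2.36, 1.88, 2.35 and 3.06 FPKM in wild-type libraries (log2 difference 2.62, SE 0.278, limma adjusted p = 0.0014). For both, null replicate 2, one of the libraries with airway signal, was the highest and null replicate 4 the lowest, and all were above every wild-type library. Wisp2 (also Ccn5), a secreted CCN protein, measured 16.7, 37.1, 46.2 and 23.4 FPKM in Dsg2-null and 3.48, 3.26, 2.34 and 1.9 FPKM in wild-type libraries and was highest in null replicate 3 (log2 difference 3.01, SE 0.286, limma adjusted p = 0.000896). Postn (periostin), the matricellular marker of activated fibroblasts, measured 63.2, 116, 78.5 and 102 FPKM in Dsg2-null and 18.8, 12.2, 19.2 and 17.4 FPKM in wild-type libraries (log2 difference 2.33, SE 0.203, limma adjusted p = 0.000561).

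Other matricellular members, named after their values were seen, were also higher. Ctgf (Ccn2), a growth-factor-binding protein induced by stretch and TGF-beta, measured 135, 122, 96.1 and 100.4 FPKM in Dsg2-null and 19.9, 38.8, 31.7 and 28.9 FPKM in wild-type libraries, with the groups far apart (log2 difference 1.91, SE 0.191, limma adjusted p = 0.00107). Tnc (tenascin-C), a protein of injured borders, measured 5.18, 5.02, 4.2 and 3.33 FPKM in Dsg2-null and 0.298, 0.597, 0.413 and 0.667 FPKM in wild-type libraries (log2 difference 1.86, SE 0.15, limma adjusted p = 0.000528). Fn1 (fibronectin) measured 58.1, 94.6, 103 and 38.6 FPKM in Dsg2-null and 21.7, 19.3, 16.5 and 18.1 FPKM in wild-type libraries, spread more widely among null than among wild-type libraries (log2 difference 1.81, SE 0.272, limma adjusted p = 0.00582). Thbs1, an activator of latent TGF-beta, measured 29.4, 32, 25.3 and 17.7 FPKM in Dsg2-null and 10.8, 9.5, 4.52 and 5.79 FPKM in wild-type libraries (log2 difference 1.68, SE 0.259, limma adjusted p = 0.00621). Nov, Cyr61, Wisp1, Cilp2 and Smoc2 were tested and did not pass, with log2 differences between 0.22 and 0.68. Over this list, leaving out any 1 library left between 13 and 15 genes higher, and leaving out all 3 libraries left 9.

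Of 16 collagens tested outside the basement membrane, 14 were higher and 0 lower (median 1.36), and the genotypes did not overlap for those 14. Col8a2, a short-chain collagen, measured 4.94, 10.3, 4.89 and 4.09 FPKM in Dsg2-null and 0.557, 0.907, 0.621 and 0.73 FPKM in wild-type libraries (log2 difference 1.98, SE 0.229, limma adjusted p = 0.00194). Col14a1, which sits on the surface of fibrils, measured 27.1, 41.9, 21.7 and 28.2 FPKM in Dsg2-null and 4.76, 5.99, 11.9 and 8.04 FPKM in wild-type libraries (log2 difference 1.85, SE 0.26, limma adjusted p = 0.00433). Levels per length of transcript were higher for the fibril-forming genes. Col3a1 measured 328, 698, 518 and 485 FPKM in Dsg2-null and 105, 135, 247 and 186 FPKM in wild-type libraries (log2 difference 1.61, SE 0.285, limma adjusted p = 0.0118) and Col1a1 113, 204, 186 and 105 FPKM in Dsg2-null and 37.3, 45.2, 56.6 and 58 FPKM in wild-type libraries (log2 difference 1.57, SE 0.236, limma adjusted p = 0.00582). Null replicate 2 held the highest Col3a1 value and wild-type replicate 1 the lowest, and the groups did not overlap. Without the 3 libraries, Col3a1 differed by 1.02 (limma adjusted p = 0.18), and 2 collagens of the list were called, Col8a2 and Col16a1. Leaving out 1 library left 10 to 14.

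Of 15 basement membrane genes, 1 was higher, Col4a3, at 2.35, 2.62, 2.55 and 2.17 FPKM in Dsg2-null and 1.21, 0.951, 1.39 and 1.65 FPKM in wild-type libraries (log2 difference 0.58, SE 0.128, limma adjusted p = 0.0296). Col4a3 was no longer called when any 1 of Dsg2-null replicates 1, 2 and 3 or wild-type replicates 1, 2 and 3 was left out (limma adjusted p up to 0.0841, without wild-type replicate 1). Col4a1, the main collagen of vessel and muscle basement membrane, measured 177, 181, 239 and 142 FPKM in Dsg2-null and 119.5, 135, 123 and 167 FPKM in wild-type libraries, with overlapping groups (limma adjusted p = 0.171), and Lama2, the laminin of muscle fibres, differed by 0.17 (limma adjusted p = 0.505). The median of the list was 0.24, and 2 members were higher without Dsg2-null replicate 4. Over all genes, 5.24% were higher.

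In the list of hyaluronan genes and small proteoglycans, which space and bind collagen fibrils, 7 of 9 tested genes were higher (median 1.14, 0 lower). Fmod (fibromodulin) measured 23.4, 37.4, 22.7 and 14.2 FPKM in Dsg2-null and 3.22, 4.17, 4.73 and 4.72 FPKM in wild-type libraries (log2 difference 2.22, SE 0.242, limma adjusted p = 0.00159). Bgn (biglycan) measured 290.4, 431, 346 and 239 FPKM in Dsg2-null and 101, 95.8, 118 and 122 FPKM in wild-type libraries (log2 difference 1.54, SE 0.174, limma adjusted p = 0.00176). Dcn (decorin) measured 296, 476, 289.9 and 397 FPKM in Dsg2-null and 179.5, 188, 212 and 172 FPKM in wild-type libraries (log2 difference 0.93, SE 0.164, limma adjusted p = 0.012), a smaller difference that left the groups apart. Lum (lumican) measured 42.1, 67.6, 37 and 75.9 FPKM in Dsg2-null and 17, 18, 35.6 and 23.3 FPKM in wild-type libraries, with its lowest null value only just above the highest wild-type value (limma adjusted p = 0.0353). Lum was no longer called when any 1 of Dsg2-null replicates 2 and 4 or wild-type replicates 1, 2 and 4 was left out (limma adjusted p up to 0.0996, without wild-type replicate 1). Cd44, the hyaluronan receptor, measured 7.88, 15.8, 9.71 and 11.6 FPKM in Dsg2-null and 5.3, 4.31, 6.13 and 2.53 FPKM in wild-type libraries (log2 difference 1.14, SE 0.245, limma adjusted p = 0.0267). Cd44 was no longer called when any 1 of Dsg2-null replicates 2 and 4 or wild-type replicates 1, 2 and 4 was left out (limma adjusted p up to 0.0677, without wild-type replicate 2).

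Of 13 elastic fibre genes, 8 were higher and 0 lower (median 0.92). Ltbp2, which binds fibrillin microfibrils, measured 17.3, 27.4, 23.3 and 10.3 FPKM in Dsg2-null and 2.67, 1.65, 1.37 and 1.48 FPKM in wild-type libraries, with null replicate 4 lowest of its group and still several-fold above wild type (log2 difference 2.82, SE 0.269, limma adjusted p = 0.000896). Mfap4 measured 27.2, 54.3, 33.4 and 30.2 FPKM in Dsg2-null and 6.31, 8.53, 16 and 11.5 FPKM in wild-type libraries (log2 difference 1.70, SE 0.276, limma adjusted p = 0.00802). Fbn1 (fibrillin-1), the microfibril backbone, measured 34, 46.1, 41.8 and 28.8 FPKM in Dsg2-null and 19.9, 17.6, 18.6 and 20.7 FPKM in wild-type libraries (log2 difference 0.92, SE 0.144, limma adjusted p = 0.00705). Eln (elastin) measured 36.1, 69, 63.7 and 27.6 FPKM in Dsg2-null and 14.5, 19.3, 24 and 20.9 FPKM in wild-type libraries and the groups did not overlap (limma adjusted p = 0.0375). Eln was no longer called when any 1 of Dsg2-null replicates 2 and 3 or wild-type replicates 1, 2, 3 and 4 was left out (limma adjusted p up to 0.104, without wild-type replicate 1).

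Of 16 enzymes and chaperones that process collagen, 7 were higher and 0 lower (median 0.49). Lox (lysyl oxidase), which crosslinks collagen and elastin, measured 4.06, 5.29, 9.39 and 3.39 FPKM in Dsg2-null and 1.45, 1.73, 1.19 and 1.76 FPKM in wild-type libraries and was highest in null replicate 3 (log2 difference 1.29, SE 0.24, limma adjusted p = 0.0145). Adamts2, which trims the amino end of procollagens, measured 11.8, 19, 18.4 and 12.7 FPKM in Dsg2-null and 4.9, 5.07, 6.45 and 7.23 FPKM in wild-type libraries (log2 difference 1.24, SE 0.178, limma adjusted p = 0.00495). The prolyl hydroxylase P4ha1 and the collagen chaperone Serpinh1, which act inside the cell, differed by 0.17 (limma adjusted p = 0.658) and 0.10 (limma adjusted p = 0.869). The members that passed were thus the crosslinking and trimming enzymes Lox, Loxl1, Loxl3, Adamts2 and Bmp1, the enhancer Pcolce2 and the hydroxylase P3h2.

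Of 17 matrix proteases and inhibitors tested, 8 were higher and 0 lower (median 0.90). Timp1, the inducible inhibitor of metalloproteinases, measured 16.5, 14.5, 19.6 and 20.3 FPKM in Dsg2-null and 2.17, 3.4, 1.95 and 1.5 FPKM in wild-type libraries, with null replicates 3 and 4, the males, highest (log2 difference 2.55, SE 0.179, limma adjusted p = 0.000235). Mmp12, the macrophage elastase, measured 3.26, 5.14, 3.22 and 6.87 FPKM in Dsg2-null and 0.0262, 0.0295, 0.13 and 0 FPKM in wild-type libraries, and was listed at 0 in wild-type replicate 4 (log2 difference 2.38, SE 0.202, limma adjusted p = 0.000554). Ctsk (cathepsin K), a collagen-cleaving lysosomal protease, measured 8.54, 15, 11.2 and 14 FPKM in Dsg2-null and 1.65, 2.96, 3.22 and 2.22 FPKM in wild-type libraries (log2 difference 1.90, SE 0.197, limma adjusted p = 0.00132). Mmp2 (gelatinase A) measured 45.4, 60.3, 50.7 and 47.4 FPKM in Dsg2-null and 17.8, 16.9, 25.6 and 23.7 FPKM in wild-type libraries (log2 difference 1.25, SE 0.151, limma adjusted p = 0.00214). Without the 3 libraries Timp1, Mmp12 and Ctsk were the members called (limma adjusted p = 0.00236, 0.0393 and 0.0445). Timp4, the inhibitor made by cardiomyocytes, had a log2 difference of -0.52 (limma adjusted p = 0.211).

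**Figure D2:**
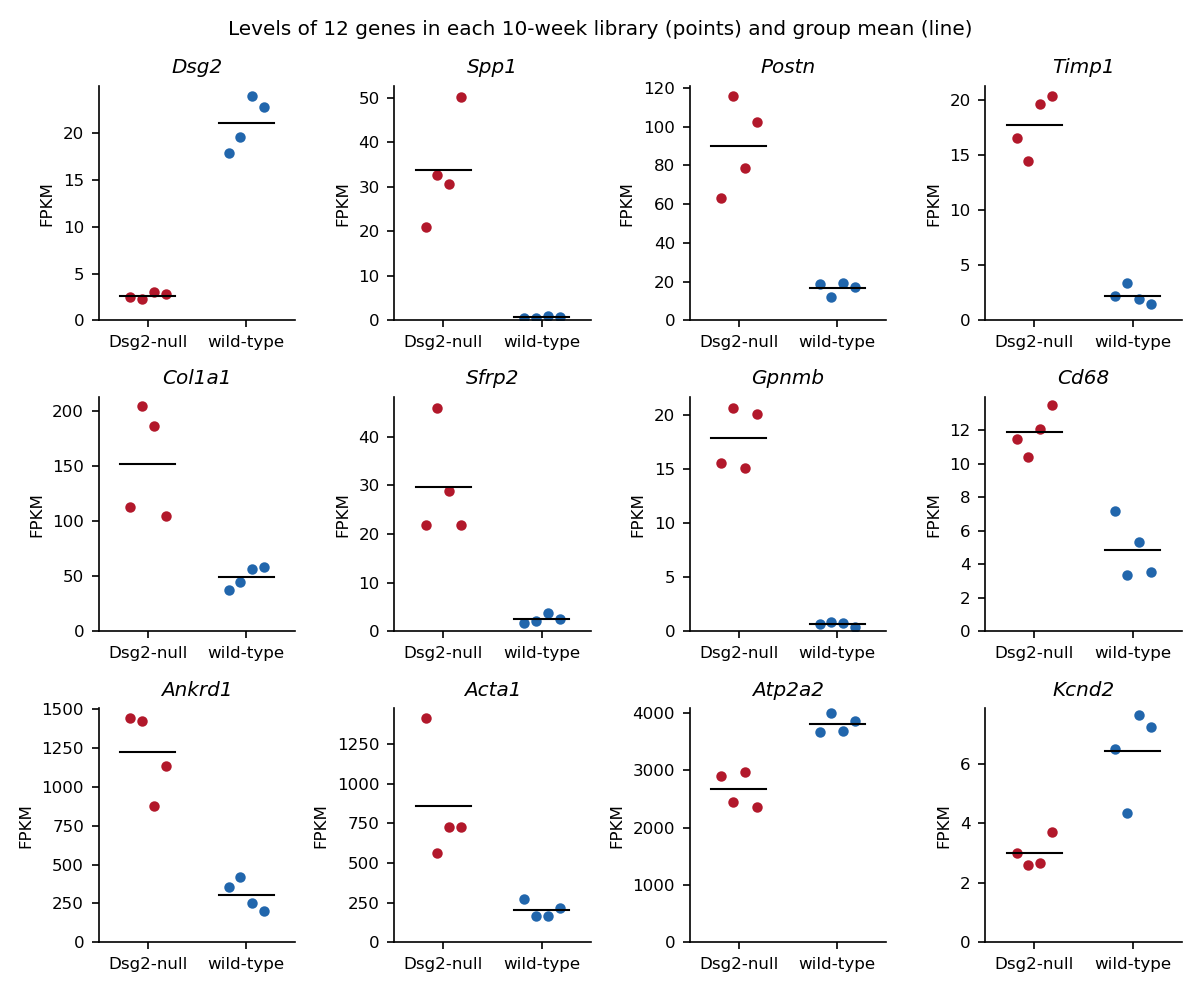
FPKM of 12 genes in each 10-week library (points, replicates 1 to 4 from left to right) with the group mean as a line, Dsg2-null in red and wild-type in blue. Dsg2, Atp2a2 and Kcnd2 lie lower and the other 9 genes higher in every Dsg2-null library than in every wild-type library.

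Markers of resting fibroblasts were higher in 4 of 10 tested genes, and markers of activated fibroblasts and myofibroblasts in 8 of 15, with 0 lower in both (medians 0.49 and 0.94). Of the 8, Postn, Cilp, Thbs4, Ltbp2 and Fn1 are matrix genes already described. Sfrp2, a secreted Wnt antagonist of activated fibroblasts, measured 21.8, 45.9, 28.9 and 21.8 FPKM in Dsg2-null and 1.7, 2.09, 3.8 and 2.6 FPKM in wild-type libraries (log2 difference 3.08, SE 0.251, limma adjusted p = 0.000528). Meox1, a transcription factor that appears in activated cardiac fibroblasts, measured 19.9, 20.8, 13.7 and 11.7 FPKM in Dsg2-null and 6.28, 5.34, 6.57 and 5.69 FPKM in wild-type libraries (log2 difference 1.29, SE 0.177, limma adjusted p = 0.00386). The contractile myofibroblast gene Acta2 (smooth muscle actin) measured 103, 117, 110.1 and 211 FPKM in Dsg2-null and 79.3, 80.7, 83.6 and 132 FPKM in wild-type libraries, with overlapping groups (limma adjusted p = 0.273). Smooth muscle and pericyte markers summed to 1222 to 1417 FPKM in Dsg2-null and 1021 to 1142 FPKM in wild-type libraries. They include Acta2, Tagln and Cnn1, the contractile members of the activated list, and none passed in limma. Fap measured 0.956, 1.64, 1.46 and 2.01 FPKM in Dsg2-null and 0.944, 0.673, 1.13 and 1.07 FPKM in wild-type libraries, also overlapping (limma adjusted p = 0.229). Among resting markers, Pi16 measured 52.1, 71, 53.8 and 46.4 FPKM in Dsg2-null and 22.5, 25.2, 28.5 and 21.4 FPKM in wild-type libraries (log2 difference 1.15, SE 0.144, limma adjusted p = 0.00251). Tcf21, the lineage factor of cardiac fibroblasts, measured 6.26, 9.29, 6.96 and 7.66 FPKM in Dsg2-null and 3.71, 4.19, 5.3 and 3.6 FPKM in wild-type libraries (limma adjusted p = 0.0206). Tcf21 was no longer called when any 1 of Dsg2-null replicate 2 or wild-type replicates 1, 2 and 4 was left out (limma adjusted p up to 0.0636, without wild-type replicate 1). In tissue samples, more fibroblasts and more RNA of these genes per fibroblast cannot be told apart, and the same holds for every cell type described here.

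TGF-beta drives fibroblast activation and is stored in the matrix in a latent form bound to some LTBP proteins. Of 9 genes tested in the ligand list, 5 were higher and 0 lower (median 0.59). These 5 include Bmp1, a trimming enzyme already counted among the collagen-processing genes and not a TGF-beta ligand. Gdf15, a distant family member released by stressed cells, measured 13.4, 7.84, 4.25 and 3.49 FPKM in Dsg2-null and 1.5, 0.852, 0.942 and 0.844 FPKM in wild-type libraries, with null replicate 1 highest (log2 difference 1.88, SE 0.324, limma adjusted p = 0.0103). Tgfb3 measured 15.2, 19.8, 14 and 11.8 FPKM in Dsg2-null and 5.99, 6.62, 6.51 and 7.82 FPKM in wild-type libraries (log2 difference 1.05, SE 0.151, limma adjusted p = 0.00491). Tgfb2 measured 6.2, 6.08, 3.52 and 3.64 FPKM in Dsg2-null and 2.1, 1.89, 2.36 and 2.45 FPKM in wild-type libraries, where the females, replicates 1 and 2, held the higher null values (limma adjusted p = 0.0248). Tgfb2 was no longer called when any 1 of Dsg2-null replicates 1 and 2 or wild-type replicates 1, 2, 3 and 4 was left out (limma adjusted p up to 0.0709, without wild-type replicate 2). Inhba, the activin A subunit, measured 0.786, 1.68, 2.27 and 1.49 FPKM in Dsg2-null and 0.365, 0.375, 0.598 and 0.554 FPKM in wild-type libraries (limma adjusted p = 0.0424). Inhba was no longer called when any 1 of wild-type replicates 1, 2, 3 and 4 was left out (limma adjusted p up to 0.112, without wild-type replicate 1). Without Dsg2-null replicate 2, 3 or 4 its mean fell under 1 FPKM, so Inhba was not tested there. Leaving out 1 library left 2 to 4 members of the list higher: 2 without Dsg2-null replicate 2 or wild-type replicates 1 or 2, and 3 without Dsg2-null replicate 3 or wild-type replicates 3 or 4.

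Among receptors and signal carriers, 5 of 27 were higher and 0 lower, with a median of 0.19. Those were Ltbp2, the microfibril-binding gene described above, Ltbp3, which holds latent TGF-beta, the follistatin family members Fstl1 and Fstl3, and the receptor Tgfbr2. Tgfbr2 measured 14.3, 17.4, 17.6 and 15 FPKM in Dsg2-null and 10.8, 11.1, 11 and 10.6 FPKM in wild-type libraries (log2 difference 0.52, SE 0.0967, limma adjusted p = 0.0147). Fstl1, secreted by fibroblasts, measured 61.8, 104, 83.7 and 82 FPKM in Dsg2-null and 31.7, 31.2, 39 and 35.1 FPKM in wild-type libraries (log2 difference 1.23, SE 0.151, limma adjusted p = 0.00232). The inhibitory Smad7 had a log2 difference of 0.46 (limma adjusted p = 0.0672) and Tgfbr1 one of 0.33 (limma adjusted p = 0.158). The intracellular Smads 1 to 6 did not pass, with log2 differences from -0.36 (Smad5) to 0.41 (Smad1).

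In the Wnt list, 6 of 18 genes tested were higher and 0 lower (median 0.43), and 3 of these 6, Sfrp2, Frzb and Sfrp1, encode secreted Wnt-binding proteins. Frzb measured 8.46, 11.2, 8.71 and 6.44 FPKM in Dsg2-null and 1.16, 1.53, 1.97 and 2.08 FPKM in wild-type libraries (log2 difference 1.85, SE 0.172, limma adjusted p = 0.000896), and Sfrp1 10.7, 21.5, 19.5 and 11.8 FPKM in Dsg2-null and 2.85, 4.24, 5.22 and 4.43 FPKM in wild-type libraries (log2 difference 1.66, SE 0.234, limma adjusted p = 0.00433). The receptors Fzd1 and Fzd2 were higher by 0.87 (limma adjusted p = 0.00508) and 0.89 (limma adjusted p = 0.0183). Fzd2 was no longer called when any 1 of wild-type replicates 1 and 4 was left out (limma adjusted p up to 0.0561, without wild-type replicate 4). Nkd2, an inhibitor inside the cell, rose by 0.99 (limma adjusted p = 0.0201). Nkd2 was no longer called when any 1 of wild-type replicates 1, 2, 3 and 4 was left out (limma adjusted p up to 0.0558, without wild-type replicate 1). Axin2, a common target of the beta-catenin branch, measured 2.01, 3.11, 2.73 and 2.25 FPKM in Dsg2-null and 1.5, 2.39, 2.5 and 2.55 FPKM in wild-type libraries (limma adjusted p = 0.682).

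Integrins, the receptors for matrix, were higher in 4 of 17 tested genes and lower in 0 (median 0.38). Itgax and Itgb2, the subunits of an integrin of myeloid cells, showed the largest differences. Itgax measured 2.17, 2.7, 1.75 and 2.27 FPKM in Dsg2-null and 0.104, 0.0281, 0.152 and 0.0354 FPKM in wild-type libraries (log2 difference 1.57, SE 0.132, limma adjusted p = 0.000554), and Itgb2 5.17, 6.03, 6.65 and 7.16 FPKM in Dsg2-null and 3.12, 2.27, 2.17 and 1.97 FPKM in wild-type libraries (log2 difference 1.10, SE 0.138, limma adjusted p = 0.00251). Without Dsg2-null replicate 2 or 4 the mean of Itgax fell under 1 FPKM, so it was not tested there. Itgb5, which with alpha-v binds vitronectin and latent TGF-beta, measured 62.2, 68.7, 58.3 and 54.7 FPKM in Dsg2-null and 36, 35.6, 34.4 and 35.8 FPKM in wild-type libraries (log2 difference 0.76, SE 0.0931, limma adjusted p = 0.00228). Itgb7, a lymphocyte subunit, rose by 0.65 (limma adjusted p = 0.0435). Itgb7 was no longer called when any 1 of Dsg2-null replicates 1, 2, 3 and 4 or wild-type replicates 1, 2, 3 and 4 was left out (limma adjusted p up to 0.112, without wild-type replicate 1). Itgav had a log2 difference of 0.34 (limma adjusted p = 0.258).

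Of 9 genes of the renin-angiotensin and endothelin system, 2 were higher. Ace, the enzyme that makes angiotensin II, measured 31.8, 37.2, 56.3 and 29.2 FPKM in Dsg2-null and 24.1, 21.7, 16.1 and 18.8 FPKM in wild-type libraries and was highest in null replicate 3 (limma adjusted p = 0.0353). Ace was no longer called when any 1 of Dsg2-null replicate 2 or wild-type replicates 1, 2, 3 and 4 was left out (limma adjusted p up to 0.0897, without wild-type replicate 4). Edn1 (endothelin-1) measured 3.06, 2.73, 2.51 and 2.24 FPKM in Dsg2-null and 1, 1.36, 1.59 and 1.24 FPKM in wild-type libraries (log2 difference 0.66, SE 0.128, limma adjusted p = 0.017). Edn1 was no longer called when any 1 of wild-type replicates 1 and 4 was left out (limma adjusted p up to 0.0534, without wild-type replicate 1). Agt and Agtr1a, the angiotensin precursor and its receptor, had log2 differences of 0.12 (limma adjusted p = 0.935) and 0.24 (limma adjusted p = 0.684).

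**Figure D3:**
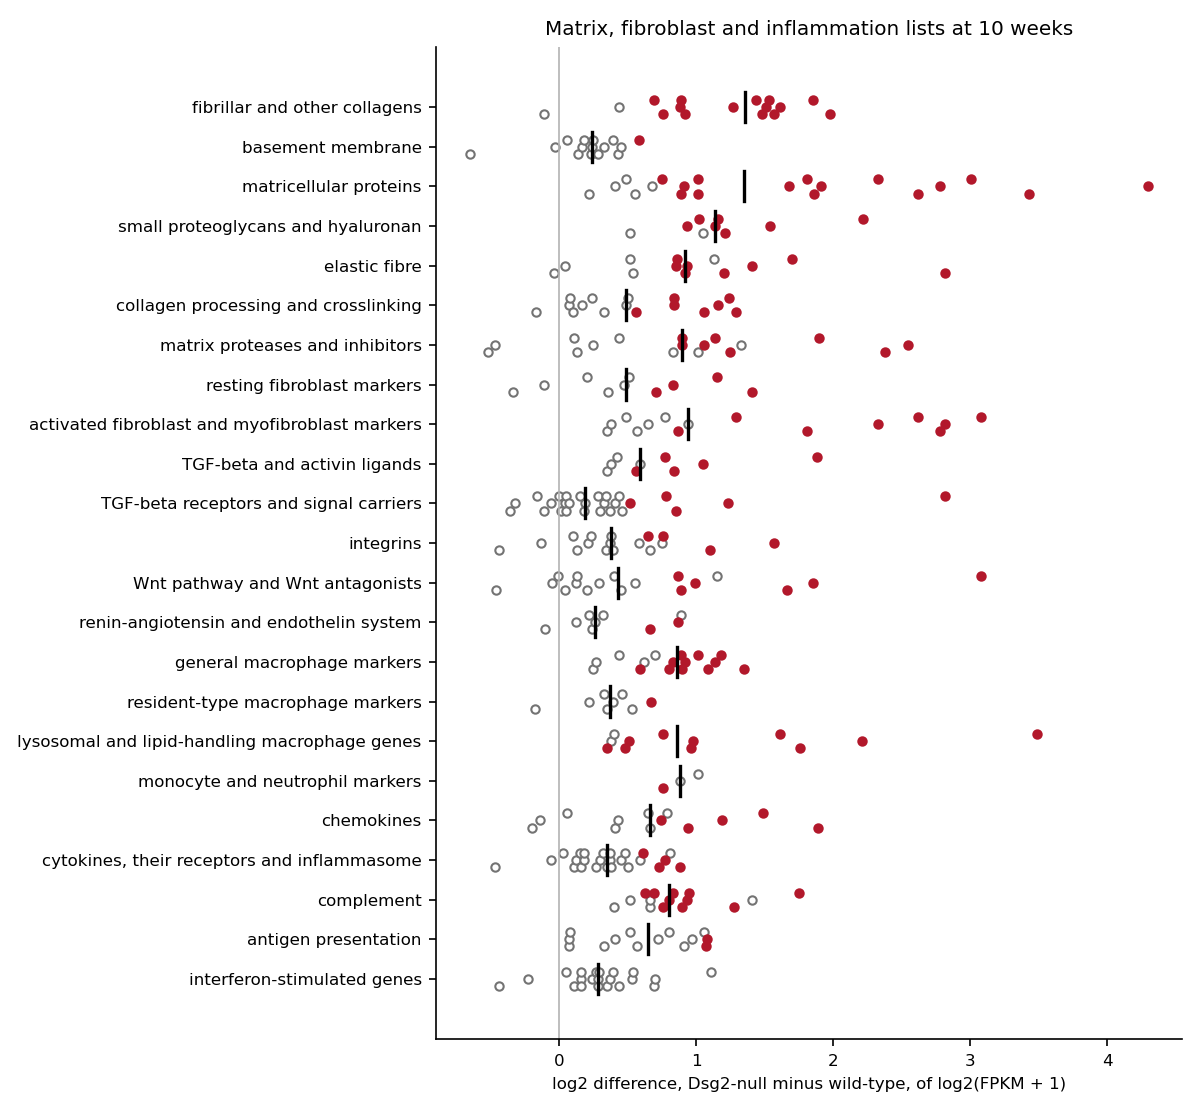
Log2 difference (Dsg2-null minus wild-type, log2(FPKM + 1)) of each tested member of the matrix, fibroblast and inflammation lists, filled where the limma adjusted p was under 0.05, with the list median as a bar. The medians of the matricellular and collagen lists are 1.35 and 1.36, and no member of the interferon list is filled.

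Among the listed genes of inflammation, most of those that rose are macrophage or complement genes, and C1qa and C1qb are counted in both lists. Of 16 general macrophage markers, 11 were higher and 0 lower (median 0.86). Tyrobp, an adaptor of myeloid receptors, measured 16.5, 23.5, 22.9 and 38.9 FPKM in Dsg2-null and 9.49, 9.65, 8.47 and 8.18 FPKM in wild-type libraries (log2 difference 1.35, SE 0.211, limma adjusted p = 0.00694). Cd68, a lysosomal glycoprotein of macrophages, measured 11.5, 10.4, 12.1 and 13.5 FPKM in Dsg2-null and 7.21, 3.35, 5.32 and 3.52 FPKM in wild-type libraries (log2 difference 1.18, SE 0.196, limma adjusted p = 0.00872). Adgre1, which encodes the F4/80 antigen, measured 7.96, 8.24, 8.1 and 9.44 FPKM in Dsg2-null and 5.08, 4.08, 4.23 and 2.82 FPKM in wild-type libraries (log2 difference 0.92, SE 0.144, limma adjusted p = 0.00705). The groups did not overlap for any of these 3 genes. Csf1r, the receptor on which macrophages depend, measured 15.2, 18.4, 19.2 and 17.8 FPKM in Dsg2-null and 13.4, 10.8, 12 and 9.63 FPKM in wild-type libraries (limma adjusted p = 0.0224). Csf1r was no longer called when any 1 of Dsg2-null replicates 2 and 3 or wild-type replicates 2 and 4 was left out (limma adjusted p up to 0.0659, without wild-type replicate 2). Lyz2 (lysozyme) measured 105, 174, 174 and 187 FPKM in Dsg2-null and 79.3, 87.1, 76.1 and 53.2 FPKM in wild-type libraries (log2 difference 1.09, SE 0.206, limma adjusted p = 0.0155), with null replicate 1 apart from the other nulls. Lyz2 was no longer called without Dsg2-null replicate 2 (limma adjusted p = 0.0521). The list count was 7 without Dsg2-null replicate 2, Dsg2-null replicate 3 or wild-type replicate 4, 1 without the 2 libraries with airway signal, and 11 without wild-type replicate 1. Without all 3 libraries it was 0.

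Resident-type markers were higher in 1 of 8 tested genes, Gas6, a ligand for receptors that clear dead cells (0.67, limma adjusted p = 0.00313). Lyve1, a marker of vessel-associated macrophages, measured 11.1, 7.86, 11.8 and 9.79 FPKM in Dsg2-null and 8.68, 7, 6.72 and 8.27 FPKM in wild-type libraries (limma adjusted p = 0.17). Cd163, the haemoglobin scavenger receptor, measured 3.37, 3.44, 6.61 and 4.91 FPKM in Dsg2-null and 6.07, 4.88, 3.93 and 5.96 FPKM in wild-type libraries (limma adjusted p = 0.651). Both genes overlapped between genotypes. The count was 2 without Dsg2-null replicate 1 or 4.

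Genes of lysosomal and lipid-handling macrophages were higher in 10 of 12 tested and lower in 0 (median 0.86), with 7 to 9 higher when 1 library was left out. Gpnmb (ENSMUSG00000029816, chr6:49036546-49070929), a glycoprotein of phagocytes engulfing debris, measured 15.6, 20.6, 15.1 and 20 FPKM in Dsg2-null and 0.672, 0.894, 0.768 and 0.371 FPKM in wild-type libraries, a narrow range within each genotype (log2 difference 3.49, SE 0.146, limma adjusted p = 6.74e-06). Lgals3 (galectin-3), secreted by macrophages, measured 20, 23.9, 21.1 and 28.6 FPKM in Dsg2-null and 2.38, 5.57, 4.36 and 5.28 FPKM in wild-type libraries (log2 difference 2.21, SE 0.208, limma adjusted p = 0.000896). Trem2, a lipid-sensing receptor, measured 2.9, 3.81, 5.27 and 5.16 FPKM in Dsg2-null and 0.286, 0.171, 0.711 and 1.15 FPKM in wild-type libraries (log2 difference 1.76, SE 0.225, limma adjusted p = 0.00278). Apoe, the lipid carrier, measured 218, 262, 203 and 189.5 FPKM in Dsg2-null and 115, 69.2, 61.2 and 50.3 FPKM in wild-type libraries, with wild-type replicate 1 highest of its group (log2 difference 1.61, SE 0.226, limma adjusted p = 0.00442). Without the 3 libraries, Gpnmb, Lgals3, Apoe and Cd9 were called. Hmox1, which degrades heme, measured 7.62, 5.55, 8.12 and 8.98 FPKM in Dsg2-null and 4.9, 3.93, 2.76 and 4.75 FPKM in wild-type libraries (limma adjusted p = 0.0377). Hmox1 was no longer called when any 1 of Dsg2-null replicates 1, 3 and 4 or wild-type replicates 1, 2, 3 and 4 was left out (limma adjusted p up to 0.0891, without wild-type replicate 2). Red blood cell markers summed to 2960 to 9042 FPKM in Dsg2-null and 1307 to 4287 FPKM in wild-type libraries, and their part in the Hmox1 difference was not tested.

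Markers of monocytes, neutrophils and lymphocytes were scarce. Of 14 matched monocyte and neutrophil markers 3 reached the filter, and 1, Ccr2, the receptor of recruited monocytes, was higher at 1, 2.35, 1.41 and 1.71 FPKM in Dsg2-null and 0.558, 0.72, 0.541 and 0.289 FPKM in wild-type libraries (limma adjusted p = 0.0364). Ccr2 was no longer called when any 1 of Dsg2-null replicate 3 or wild-type replicates 1, 2, 3 and 4 was left out (limma adjusted p up to 0.0953, without wild-type replicate 4). Without Dsg2-null replicate 2 or 4 its mean fell under 1 FPKM, so Ccr2 was not tested there. Of 22 T and NK cell markers 2 were tested, and 0 passed. Cd3e, part of the T cell receptor complex, measured 0.381, 0.184, 0.538 and 0.609 FPKM in Dsg2-null and 0.394, 0, 0.0803 and 0 FPKM in wild-type libraries, and was listed at 0 in wild-type replicates 2 and 4. Of 12 B and plasma cell markers 0 reached the filter. Summed T and NK cell markers were 11.5 to 21.2 FPKM in Dsg2-null and 7.39 to 10.5 FPKM in wild-type libraries, without overlap. Sums of monocyte and neutrophil markers overlapped, at 4.98 to 28.5 FPKM in Dsg2-null and 1.49 to 5.77 FPKM in wild-type libraries. Those of B and plasma cell markers also overlapped, at 1.835 to 9.59 FPKM in Dsg2-null and 1.75 to 2.9 FPKM in wild-type libraries.

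Chemokines were higher in 5 of 13 tested genes and lower in 0 (median 0.66), and each single omission left 4. Ccl8, a monocyte attractant made by macrophages, measured 2.73, 6.92, 5.14 and 8.96 FPKM in Dsg2-null and 1.28, 1.02, 0.511 and 0.372 FPKM in wild-type libraries (log2 difference 1.89, SE 0.29, limma adjusted p = 0.00603). Ccl5, which draws T cells, measured 1.06, 2.05, 1.88 and 2.9 FPKM in Dsg2-null and 0.209, 0.707, 0 and 0.248 FPKM in wild-type libraries, and was listed at 0 in wild-type replicate 3 (log2 difference 1.19, SE 0.222, limma adjusted p = 0.0145). Without Dsg2-null replicate 4 its mean fell under 1 FPKM, so Ccl5 was not tested there. Cxcl16 measured 5.17, 8.27, 5.95 and 7.52 FPKM in Dsg2-null and 3.05, 3.63, 2.98 and 2.33 FPKM in wild-type libraries (log2 difference 0.94, SE 0.157, limma adjusted p = 0.00872). Ccl21a rose by 1.49 (limma adjusted p = 0.00276) and is uncertain, because near-identical copies of this gene can share fragments. Cx3cl1 rose by 0.74 (limma adjusted p = 0.0384). Cx3cl1 was no longer called when any 1 of Dsg2-null replicates 1, 2 and 3 or wild-type replicates 1, 2, 3 and 4 was left out (limma adjusted p up to 0.104, without Dsg2-null replicate 2). Ccl2 measured 2.25, 0.587, 1.86 and 3.76 FPKM in Dsg2-null and 0.839, 1.19, 1.45 and 0.179 FPKM in wild-type libraries, with overlapping groups (limma adjusted p = 0.293), and Cxcl10 stayed under the filter at 0.446, 1.14, 0.117 and 0.963 FPKM in Dsg2-null and 0.0764, 0.417, 1.24 and 0.285 FPKM in wild-type libraries.

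Of 25 cytokines, receptors and inflammasome genes tested, 4 were higher and 0 lower (median 0.35). The receptors of tumour necrosis factor, Tnfrsf1a and Tnfrsf1b, rose by 0.61 (limma adjusted p = 0.0118) and 0.77 (limma adjusted p = 0.00414). Il33, an alarm signal released from damaged stromal cells, measured 2.18, 3.96, 2.91 and 4.07 FPKM in Dsg2-null and 1.22, 1.74, 1.22 and 1.02 FPKM in wild-type libraries (log2 difference 0.88, SE 0.173, limma adjusted p = 0.0189). Il33 was no longer called when any 1 of Dsg2-null replicate 2 or wild-type replicates 1, 3 and 4 was left out (limma adjusted p up to 0.0573, without wild-type replicate 4). Tlr2, a receptor for debris and bacterial lipids, rose by 0.73 (limma adjusted p = 0.0271). Tlr2 was no longer called when any 1 of Dsg2-null replicates 2 and 4 or wild-type replicates 1, 2, 3 and 4 was left out (limma adjusted p up to 0.0801, without wild-type replicate 1). The cytokines Il1b, Il6 and Tnf stayed under the filter of a mean of 1 FPKM. Il1b measured 0.748, 1.09, 1.1 and 0.4 FPKM in Dsg2-null and 0.362, 0.222, 0.626 and 0.122 FPKM in wild-type libraries. The list count was 2 without Dsg2-null replicate 2 or wild-type replicates 1, 3 or 4, and 1 member was lower without Dsg2-null replicate 4.

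Complement genes were higher in 10 of 15 tested and lower in 0 (median 0.80), but median-of-ratios scaling left 4. Single omissions left 3 to 8, with 5 without Dsg2-null replicate 2, 3 without Dsg2-null replicate 3, and 4, 6 and 3 without wild-type replicates 2, 3 and 4. C4b, the central component of the classical pathway, measured 15.3, 26, 29.2 and 17.8 FPKM in Dsg2-null and 5.66, 9.6, 5.95 and 2.97 FPKM in wild-type libraries (log2 difference 1.75, SE 0.292, limma adjusted p = 0.00886). C1ra, a protease of the same pathway, and its inhibitor Serping1 rose by 0.95 (limma adjusted p = 0.00251) and 0.93 (limma adjusted p = 0.00346). C3, where all pathways meet, measured 90.4 to 181 FPKM in Dsg2-null and 28.9 to 71.1 FPKM in wild-type libraries (limma adjusted p = 0.0318). C3 was no longer called when any 1 of Dsg2-null replicates 2 and 3 or wild-type replicates 1, 2 and 4 was left out (limma adjusted p up to 0.0844, without wild-type replicate 1). The macrophage genes C1qa and C1qb rose by 0.80 (limma adjusted p = 0.0206) and 0.90 (limma adjusted p = 0.0206). C1qa was no longer called when any 1 of Dsg2-null replicate 3 or wild-type replicates 3 and 4 was left out (limma adjusted p up to 0.0569, without wild-type replicate 4). C1qb was no longer called when any 1 of Dsg2-null replicates 2 and 3 or wild-type replicates 2 and 4 was left out (limma adjusted p up to 0.0605, without wild-type replicate 4).

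Antigen presentation genes had a median of 0.65 with 2 of 14 higher, the class II genes H2-Ab1 and H2-Eb1. H2-Ab1 measured 39, 54.4, 41.9 and 66.3 FPKM in Dsg2-null and 26.8, 25.8, 27.9 and 13.9 FPKM in wild-type libraries, with wild-type replicate 4 far below the rest of its group (log2 difference 1.08, SE 0.236, limma adjusted p = 0.0287). H2-Ab1 was no longer called when any 1 of Dsg2-null replicates 2 and 4 or wild-type replicates 1 and 2 was left out (limma adjusted p up to 0.0826, without Dsg2-null replicate 2). H2-Eb1 rose by 1.07 (limma adjusted p = 0.0322). H2-Eb1 was no longer called when any 1 of Dsg2-null replicates 2, 3 and 4 or wild-type replicates 1, 2 and 3 was left out (limma adjusted p up to 0.0899, without Dsg2-null replicate 2). Of 21 interferon-stimulated genes, 0 passed (limma) and the median was 0.28. Isg15, a ubiquitin-like interferon target, measured 2.91, 4.77, 4.51 and 6.42 FPKM in Dsg2-null and 2.55, 2.83, 5.76 and 1.99 FPKM in wild-type libraries, with overlapping groups (limma adjusted p = 0.373).

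Cardiomyocyte stress genes carried a further set of increases. The promoters of Ankrd1, Acta1 and Nppb are shown because these genes rose and are among the best-known stress genes of ventricular muscle. They were chosen after their values were seen, from 23 of 28 genes of the stress list matched to RefSeq promoters (GRCm38.p6). Each line gives the 250 bases before the RefSeq start site, 5′ to 3′ on the gene's strand. Capitals mark the hexamer GGAATG or its reverse complement CATTCC, the letters known as the binding motif of TEAD factors. The annotation behind the gene spans given here has other start sites. By its spans the Ankrd1 window lies within the gene, and Nppb starts at chr4:147985788, inside its window.
Ankrd1 (chr19:36119845-36120094, minus strand): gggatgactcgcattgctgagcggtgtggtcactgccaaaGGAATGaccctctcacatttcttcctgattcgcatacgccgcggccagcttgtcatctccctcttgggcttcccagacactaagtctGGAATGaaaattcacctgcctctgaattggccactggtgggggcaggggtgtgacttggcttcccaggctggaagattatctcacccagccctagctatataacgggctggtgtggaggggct
Acta1 (chr8:123894776-123895025, minus strand): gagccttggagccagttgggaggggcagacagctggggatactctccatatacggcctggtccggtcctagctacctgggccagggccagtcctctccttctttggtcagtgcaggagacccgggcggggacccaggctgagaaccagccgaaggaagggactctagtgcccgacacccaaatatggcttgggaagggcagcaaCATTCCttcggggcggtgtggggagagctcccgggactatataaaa
Nppb (chr4:147985650-147985899, plus strand): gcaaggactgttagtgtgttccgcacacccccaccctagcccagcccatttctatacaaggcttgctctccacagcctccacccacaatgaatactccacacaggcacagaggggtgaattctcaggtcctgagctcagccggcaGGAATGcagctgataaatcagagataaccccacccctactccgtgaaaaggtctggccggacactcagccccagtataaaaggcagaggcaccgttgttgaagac
The hexamer occurred 2 times in the Ankrd1 window and 1 time each in those of Acta1 and Nppb. Over all 32851 promoters of the same length, 4153 (12.6%) held it on either strand. In the stress list it was in 4 of 7 matched genes that rose and 1 of 14 that were tested and did not pass. The other 2 matched genes were not tested and held none. A gene counted when any of its promoters held the hexamer, whereas 12.6% is a share of promoters, so the units differ. Gdf15, which rose, and Myh7, which did not pass, held it in 1 promoter and lacked it in another. Uchl1, Nmrk2 and Serpina3n rose and held none. Whether these shares differ was not tested. A match is a description of the letters, not of binding.

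Of 26 stress and remodelling genes tested, 8 were higher and 0 lower (median 0.81), and 7 to 9 when 1 library was left out. Ankrd1 (ENSMUSG00000024803, chr19:36111961-36120099), a stretch-responsive repeat protein of the sarcomere and nucleus, measured 1443, 1424, 878 and 1133 FPKM in Dsg2-null and 353, 421, 249.9 and 202 FPKM in wild-type libraries (log2 difference 2.02, SE 0.243, limma adjusted p = 0.00214). Acta1, skeletal actin, which the adult ventricle re-expresses under load, measured 1415, 564, 724 and 726 FPKM in Dsg2-null and 274, 164, 167 and 219 FPKM in wild-type libraries, with null replicate 1 well above the others (log2 difference 1.99, SE 0.274, limma adjusted p = 0.00395). Nppb, the precursor of B-type natriuretic peptide, measured 277, 412, 328 and 305 FPKM in Dsg2-null and 131, 219.7, 95.7 and 99.2 FPKM in wild-type libraries, with wild-type replicate 2 highest of its group (log2 difference 1.34, SE 0.248, limma adjusted p = 0.0144). Nmrk2, a kinase of NAD synthesis induced in failing hearts, measured 7.94, 5.67, 8.6 and 5.57 FPKM in Dsg2-null and 0.843, 0.98, 1.13 and 1.91 FPKM in wild-type libraries (log2 difference 1.84, SE 0.183, limma adjusted p = 0.00107). Serpina3n, a secreted protease inhibitor, measured 14, 17.1, 47.5 and 12.8 FPKM in Dsg2-null and 5.02, 4.08, 1.38 and 2.27 FPKM in wild-type libraries, where null replicate 3 stood above the others (log2 difference 2.39, SE 0.413, limma adjusted p = 0.0103). Ankrd1, Nppb and Nmrk2 were called without the 3 libraries (limma adjusted p = 0.0227, 0.0146 and 0.0402). Myc rose by 1.01 (limma adjusted p = 0.0239). Myc was no longer called when any 1 of Dsg2-null replicate 2 or wild-type replicates 1, 3 and 4 was left out (limma adjusted p up to 0.069, without wild-type replicate 1).

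Nppa, the atrial natriuretic peptide gene, measured 2858, 3774, 3214 and 2547 FPKM in Dsg2-null and 84.8, 1343, 2056 and 1191 FPKM in wild-type libraries. Wild-type replicate 1, the library with few atrial markers, was far below the rest, and the genotypes did not overlap. The difference did not pass with that library (log2 difference 2.07, SE 0.827, limma adjusted p = 0.181). It passed without it (log2 difference 1.04, limma adjusted p = 0.04), and did not pass without all 3 libraries (log2 difference 0.87, limma adjusted p = 0.29). The sarcomere list had 1 of 25 genes higher, Acta1, and a median of 0.07 (-0.08 to 0.09 over the alternatives), and without Dsg2-null replicate 1 the count was 2. Myh6, the adult alpha-myosin heavy chain, measured 5735, 4486, 5453 and 3839 FPKM in Dsg2-null and 6682, 5934, 5840 and 6862 FPKM in wild-type libraries (limma adjusted p = 0.187). Myh7, the fetal beta form, measured 409.7, 306, 164 and 147 FPKM in Dsg2-null and 212, 211, 198 and 187 FPKM in wild-type libraries (limma adjusted p = 0.714). Myh6 did not overlap between genotypes and Myh7 did.

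Among 19 death and p53 target genes, 3 were higher and 0 lower. Phlda3, a p53 target that restrains Akt, measured 18.3, 25.4, 18.9 and 23 FPKM in Dsg2-null and 4.97, 8.57, 10 and 6.89 FPKM in wild-type libraries (log2 difference 1.40, SE 0.189, limma adjusted p = 0.0037). Bcl2, which protects mitochondria, measured 5.47, 5.24, 3.02 and 3.03 FPKM in Dsg2-null and 1.73, 1.13, 1.44 and 1.84 FPKM in wild-type libraries, with both females above both males in the null group (log2 difference 1.01, SE 0.191, limma adjusted p = 0.016). Aen, a p53-induced nuclease, rose by 0.98 (limma adjusted p = 0.0461). Aen was no longer called when any 1 of Dsg2-null replicates 1, 2 and 3 or wild-type replicates 1, 2 and 4 was left out (limma adjusted p up to 0.113, without wild-type replicate 2). Cdkn1a and Ripk3 had log2 differences of 0.55 (limma adjusted p = 0.264) and 0.40 (limma adjusted p = 0.318). Of 24 unfolded protein and oxidative stress genes, 2 were higher, Hmox1 and Ucp2, beside 5.24% of all genes. Ucp2, a mitochondrial carrier also found in immune cells, measured 28, 34.6, 35.8 and 39.8 FPKM in Dsg2-null and 19.3, 14.7, 24.1 and 22.1 FPKM in wild-type libraries (log2 difference 0.77, SE 0.161, limma adjusted p = 0.0244). Ucp2 was no longer called when any 1 of Dsg2-null replicates 2, 3 and 4 or wild-type replicate 1 was left out (limma adjusted p up to 0.0681, without wild-type replicate 1). This count was 0 without Dsg2-null replicates 3 or 4 or wild-type replicate 1, and 1 without Dsg2-null replicate 2 or wild-type replicates 3 or 4.

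Of 24 potassium channel genes, 3 were lower and 1 higher (median -0.21), and leaving out 1 library left 3 or 4 lower. Kcnd2, a pore subunit of the transient outward current that shapes early repolarization in rodent ventricle, measured 3, 2.59, 2.66 and 3.69 FPKM in Dsg2-null and 6.49, 4.35, 7.62 and 7.22 FPKM in wild-type libraries (log2 difference -0.88, SE 0.165, limma adjusted p = 0.0148). Its lowest wild-type value was in replicate 2, still above every null value. Kcnj11, the pore of the ATP-sensitive potassium channel, measured 45, 31.1, 34.4 and 48.5 FPKM in Dsg2-null and 66.9, 70.1, 70.4 and 74 FPKM in wild-type libraries (log2 difference -0.83, SE 0.14, limma adjusted p = 0.00931). Kcnv2, a silent subunit that modifies other channels, measured 0.897, 0.405, 0.924 and 0.839 FPKM in Dsg2-null and 2.45, 2.61, 2.16 and 2.48 FPKM in wild-type libraries (log2 difference -0.96, SE 0.136, limma adjusted p = 0.00443). Kcne4, an inhibitory accessory subunit, measured 1.91, 3.81, 2.93 and 2.91 FPKM in Dsg2-null and 0.736, 0.839, 0.85 and 1.22 FPKM in wild-type libraries (log2 difference 1.01, SE 0.165, limma adjusted p = 0.00818). The repolarizing genes Kcnip2, Kcnq1, Kcnh2 and Kcnj2, did not pass, with log2 differences of -0.25, 0.05, 0.13 and -0.53. Without the 3 libraries none of the 4 called genes passed in limma, and Kcnd2 and Kcnv2 then differed by -1.04 and -0.81 (limma adjusted p = 0.0696 and 0.101).

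Of 9 calcium channel genes 0 passed in limma, and 1, the accessory subunit Cacna2d1, was lower without overlap at 27.4, 29.7, 29.4 and 29 FPKM in Dsg2-null and 31.1, 38.4, 33.9 and 36.6 FPKM in wild-type libraries (limma adjusted p = 0.132). The L-type pore Cacna1c differed by -0.28 (limma adjusted p = 0.262).

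Among pacemaker, chloride and TRP channels, 1 of 14 was lower and 2 were higher. Ano10, a member of the anoctamin family, measured 16.9, 15.2, 17.2 and 19.9 FPKM in Dsg2-null and 32.8, 52.4, 32.9 and 39.9 FPKM in wild-type libraries, with wild-type replicate 2 highest (log2 difference -1.13, SE 0.155, limma adjusted p = 0.00395). Trpv2 and Pkd2, cation channels, rose by 0.62 (limma adjusted p = 0.0283) and 0.57 (limma adjusted p = 0.0348). Trpv2 was no longer called when any 1 of Dsg2-null replicates 2 and 4 or wild-type replicates 1, 2, 3 and 4 was left out (limma adjusted p up to 0.0832, without wild-type replicate 1). Pkd2 was no longer called when any 1 of Dsg2-null replicates 2 and 3 or wild-type replicates 1, 2, 3 and 4 was left out (limma adjusted p up to 0.0995, without wild-type replicate 1). The pacemaker gene Hcn4 measured 2.18, 2.94, 3.39 and 1.43 FPKM in Dsg2-null and 3.24, 5.42, 4.13 and 2.39 FPKM in wild-type libraries (limma adjusted p = 0.291).

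Apart from Dsg2, the intercalated disc and gap junction list of 32 tested genes had 1 lower and 2 higher members, with a median of 0.03 (-0.09 to 0.09 over the alternatives). Over all genes, 0.573% were lower and 5.24% higher. Ctnna3, alpha-T-catenin, which links adherens junctions to desmosomes, measured 10, 10.1, 7.06 and 8.09 FPKM in Dsg2-null and 14.4, 12.6, 23.1 and 14.6 FPKM in wild-type libraries, with wild-type replicate 3 highest (log2 difference -0.78, SE 0.185, limma adjusted p = 0.039). Ctnna3 was no longer called when any 1 of Dsg2-null replicates 1, 2, 3 and 4 or wild-type replicates 1, 3 and 4 was left out (limma adjusted p up to 0.0835, without Dsg2-null replicate 3). Lrrc10, a cardiomyocyte protein of the disc and sarcomere, measured 116, 91.3, 117 and 112 FPKM in Dsg2-null and 67.8, 53.1, 62.2 and 79.1 FPKM in wild-type libraries (log2 difference 0.73, SE 0.135, limma adjusted p = 0.0145). Tmem43, a nuclear envelope protein and cardiomyopathy gene, rose by 0.47 (limma adjusted p = 0.0411). Tmem43 was no longer called when any 1 of Dsg2-null replicates 2, 3 and 4 or wild-type replicates 1, 2 and 4 was left out (limma adjusted p up to 0.108, without Dsg2-null replicate 2). Other desmosomal genes did not pass. Pkp2 (plakophilin-2) measured 71.5, 52.7, 55.5 and 70.1 FPKM in Dsg2-null and 51.2, 59, 49.1 and 44.4 FPKM in wild-type libraries (log2 difference 0.28, SE 0.133, limma adjusted p = 0.248). Jup (plakoglobin) measured 101, 85.1, 79.8 and 70 FPKM in Dsg2-null and 85.1, 79.9, 88.8 and 85.3 FPKM in wild-type libraries (log2 difference -0.02, SE 0.116, limma adjusted p = 0.936). Dsp (desmoplakin) had a log2 difference of -0.36 (limma adjusted p = 0.32) and Dsc2 (desmocollin-2) one of -0.14 (limma adjusted p = 0.688). Gja1, the connexin 43 gene of ventricular gap junctions, measured 196, 62.4, 134 and 59.3 FPKM in Dsg2-null and 70.5, 158, 60.5 and 121 FPKM in wild-type libraries with the highest value and the lowest value both in null libraries (limma adjusted p = 0.952).

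Calcium handling genes had 1 lower and 1 higher member of 26, with a median of 0.00. Atp2a2, the SERCA2 pump that refills the sarcoplasmic reticulum, measured 2912, 2456, 2967 and 2368 FPKM in Dsg2-null and 3672, 4008, 3689 and 3864 FPKM in wild-type libraries, with every null library below every wild-type library (log2 difference -0.52, SE 0.123, limma adjusted p = 0.0408). Atp2a2 was no longer called when any 1 of Dsg2-null replicates 1, 2 and 3 or wild-type replicates 1, 2, 3 and 4 was left out (limma adjusted p up to 0.111, without Dsg2-null replicate 2). Median-of-ratios scaling gave 4 lower and 0 higher. Ryr2, the calcium release channel, Pln, the inhibitor of SERCA2, and Casq2, the calcium store protein, differed by -0.48 (limma adjusted p = 0.31), -0.29 (limma adjusted p = 0.203) and 0.04 (limma adjusted p = 0.919). Sri (sorcin), which tunes calcium release, measured 24.2, 28.5, 13.9 and 25.5 FPKM in Dsg2-null and 10.4, 12.4, 11.4 and 15.2 FPKM in wild-type libraries with overlapping groups (log2 difference 0.82, SE 0.207, limma adjusted p = 0.0497). Sri was no longer called when any 1 of Dsg2-null replicates 1, 2 and 4 or wild-type replicates 1, 2, 3 and 4 was left out (limma adjusted p up to 0.132, without wild-type replicate 1).

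In the sodium pump and adrenergic list, 1 of 28 genes was lower and 2 were higher, beside 0.573% and 5.24% of all genes. Adra1a, an alpha-1 receptor of cardiomyocytes, measured 3.31, 2.89, 3.75 and 2.56 FPKM in Dsg2-null and 5.68, 4.95, 5.22 and 6.43 FPKM in wild-type libraries (log2 difference -0.67, SE 0.125, limma adjusted p = 0.0145). Adcy7, an adenylate cyclase abundant in blood cells, measured 7.93, 7.61, 9.44 and 7.04 FPKM in Dsg2-null and 3.81, 4.01, 3.88 and 3.79 FPKM in wild-type libraries (log2 difference 0.88, SE 0.106, limma adjusted p = 0.00214). Grk5, a kinase that silences adrenergic receptors, measured 26.8, 23.3, 23.1 and 16.2 FPKM in Dsg2-null and 12.1, 14, 13.4 and 16.4 FPKM in wild-type libraries with a narrow overlap (limma adjusted p = 0.0438). Grk5 was no longer called when any 1 of Dsg2-null replicates 1, 2 and 3 or wild-type replicates 1, 2, 3 and 4 was left out (limma adjusted p up to 0.119, without wild-type replicate 1). Adrb1, the main beta receptor of the heart, had a log2 difference of -0.24 (limma adjusted p = 0.386). Of 20 cardiac transcription factors, 0 passed in limma, and Nkx2-5, named after its values were seen, split within both genotypes at 13.2, 11.3, 14.6 and 41.3 FPKM in Dsg2-null and 45.8, 14.1, 46.5 and 13.7 FPKM in wild-type libraries.

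**Figure D4:**
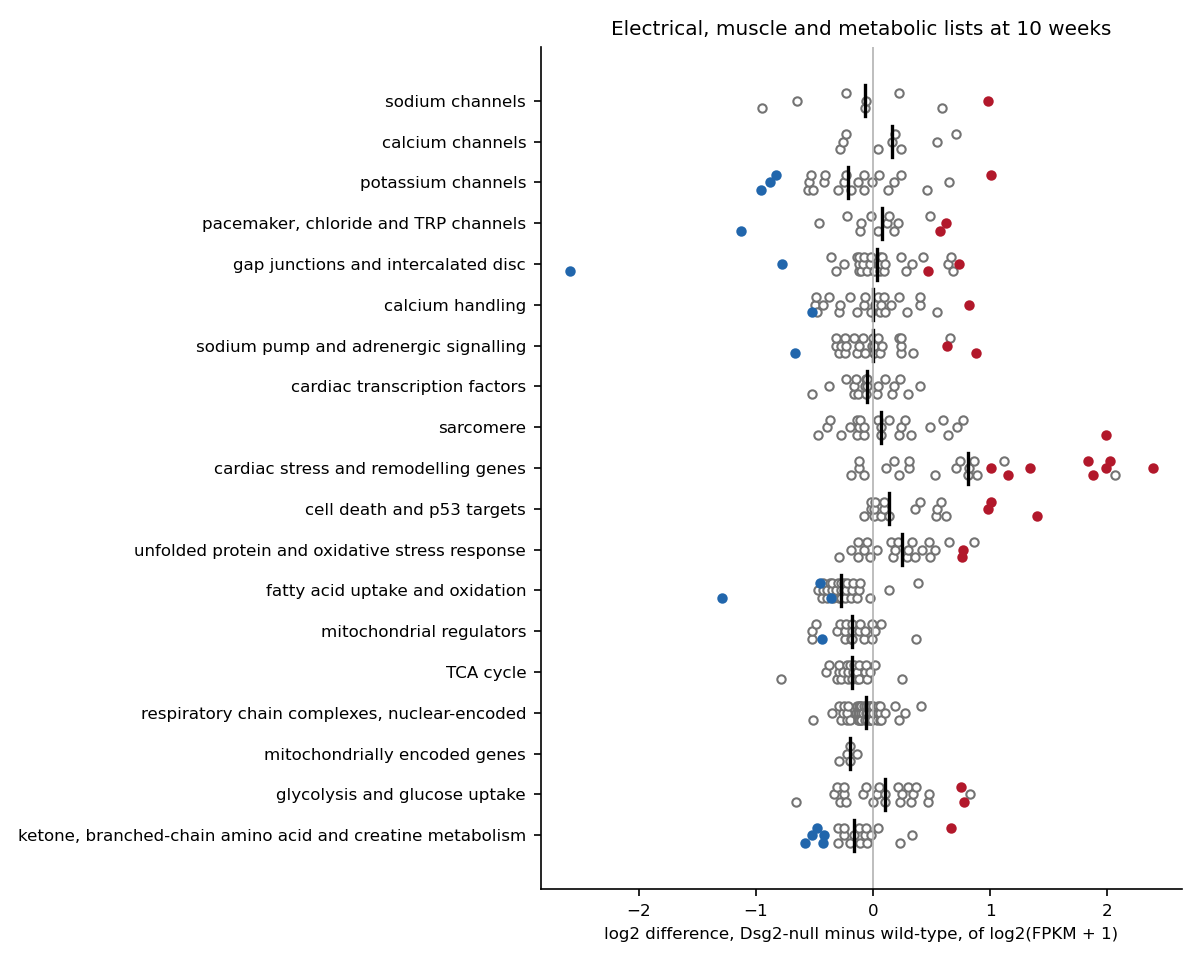
Log2 difference (Dsg2-null minus wild-type, log2(FPKM + 1)) of each tested member of the electrical, muscle and metabolic lists, red where higher and blue where lower at a limma adjusted p under 0.05, open where not passed, with the list median as a bar. The leftmost point is Dsg2, and the medians of the fatty acid, TCA cycle and mitochondrially encoded lists lie between -0.27 and -0.18.

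Of 33 genes of fatty acid uptake and oxidation, the main fuel route of the adult heart, 3 were lower and 0 higher, and 12 were lower without overlap. The median was -0.27 beside 0.10 over all genes, of which 0.573% were lower and 2.41% were lower without overlap. Acsm5, a medium-chain acyl-CoA synthetase, measured 0.225, 0.235, 0.137 and 0.117 FPKM in Dsg2-null and 2.88, 2.03, 1.39 and 1.41 FPKM in wild-type libraries, with every null library below every wild-type library (log2 difference -1.29, SE 0.172, limma adjusted p = 0.00355). Without wild-type replicate 1 or 2 its mean fell under 1 FPKM, so Acsm5 was not tested there. Lpl (lipoprotein lipase), which frees fatty acids at the vessel wall, measured 705, 641, 659.9 and 617 FPKM in Dsg2-null and 931, 939, 879.8 and 845 FPKM in wild-type libraries (log2 difference -0.45, SE 0.0958, limma adjusted p = 0.0248). Lpl was no longer called when any 1 of Dsg2-null replicates 2 and 3 or wild-type replicates 1, 2, 3 and 4 was left out (limma adjusted p up to 0.0742, without wild-type replicate 2). Etfa, which carries electrons from fatty acid oxidation, measured 199, 203, 220.5 and 226 FPKM in Dsg2-null and 258, 289, 282 and 261 FPKM in wild-type libraries (log2 difference -0.36, SE 0.0912, limma adjusted p = 0.0497). Etfa was no longer called when any 1 of Dsg2-null replicates 1, 2 and 3 or wild-type replicates 1, 2, 3 and 4 was left out (limma adjusted p up to 0.131, without Dsg2-null replicate 2). The transporter Cd36, the dehydrogenase Acadm and the kinase Pdk4 had log2 differences of -0.22 (limma adjusted p = 0.318), -0.39 (limma adjusted p = 0.0539) and -0.34 (limma adjusted p = 0.721). Median-of-ratios scaling called 9 members lower and moved the median to -0.40. With 1 library left out the count ran from 0 to 4: 0 without wild-type replicates 1 or 2, and 1 without Dsg2-null replicate 2 or wild-type replicates 3 or 4. Summed levels of the list were 6537 to 7858 FPKM in Dsg2-null and 8332 to 9031 FPKM in wild-type libraries. Cardiomyocyte markers summed to 28431, 26114, 27505 and 31900 FPKM in Dsg2-null and 30920, 32687, 31983 and 29669 FPKM in wild-type libraries. Only Dsg2-null replicate 4 reached the wild-type range. The part of cell composition in these values was not tested.

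Regulators of mitochondrial genes had 1 of 22 lower, Rxrg, a retinoid receptor that pairs with PPAR factors. It measured 26.6, 22.1, 25.9 and 25.2 FPKM in Dsg2-null and 35, 34.8, 34.6 and 32.1 FPKM in wild-type libraries (log2 difference -0.44, SE 0.0903, limma adjusted p = 0.0221). Rxrg was no longer called when any 1 of Dsg2-null replicate 2 or wild-type replicates 1, 2 and 3 was left out (limma adjusted p up to 0.0667, without wild-type replicate 1). Ppara, the fatty acid sensor, measured 16.7, 22.3, 21.1 and 19.8 FPKM in Dsg2-null and 29.4, 25.8, 23.3 and 39.7 FPKM in wild-type libraries (limma adjusted p = 0.0985). Of 25 TCA cycle genes 0 passed in limma, and 5 were lower without overlap (median -0.18), beside 2.41% of all genes. Ogdhl, an isoform of the oxoglutarate dehydrogenase, had the largest difference and overlapped, at 25.5, 17.9, 35.2 and 20.8 FPKM in Dsg2-null and 52.7, 48.4, 30.2 and 41.1 FPKM in wild-type libraries (limma adjusted p = 0.0721). Of 51 nuclear-encoded respiratory chain genes 0 passed (median -0.06), and of 5 mitochondrially encoded genes 0 (median -0.20).

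Glycolysis and glucose uptake had 2 of 26 genes higher, beside 5.24% of all genes. Pfkp, the platelet-type phosphofructokinase, measured 38.3, 35.6, 47.1 and 29.2 FPKM in Dsg2-null and 21.1, 21.9, 18.6 and 23.6 FPKM in wild-type libraries (log2 difference 0.78, SE 0.143, limma adjusted p = 0.0143). Slc2a3, a high-affinity glucose transporter, measured 1.44, 1.43, 1.73 and 1.66 FPKM in Dsg2-null and 0.892, 0.488, 0.519 and 0.27 FPKM in wild-type libraries (log2 difference 0.75, SE 0.146, limma adjusted p = 0.018). Slc2a3 was no longer called when any 1 of wild-type replicates 2 and 4 was left out (limma adjusted p up to 0.0545, without wild-type replicate 2). Without Dsg2-null replicate 1, 3 or 4 its mean fell under 1 FPKM, so Slc2a3 was not tested there. The count was 1 without Dsg2-null replicates 1 or 3 or wild-type replicates 2 or 4. The cardiac transporter Slc2a4 and the ubiquitous Slc2a1 differed by -0.28 (limma adjusted p = 0.2) and 0.21 (limma adjusted p = 0.608).

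In the list of ketone, branched-chain amino acid and creatine metabolism, 5 of 21 genes were lower and 1 higher. The 5 act in breakdown of branched-chain amino acids. Ppm1k, the phosphatase that switches on the branched-chain dehydrogenase, measured 15, 15.4, 12.8 and 13.8 FPKM in Dsg2-null and 19.4, 19.5, 24.7 and 20 FPKM in wild-type libraries (log2 difference -0.52, SE 0.109, limma adjusted p = 0.0244). Ppm1k was no longer called when any 1 of Dsg2-null replicate 3 or wild-type replicates 2, 3 and 4 was left out (limma adjusted p up to 0.0594, without Dsg2-null replicate 3). Bckdhb, a subunit of that enzyme, measured 17.4, 16.2, 14.9 and 19.6 FPKM in Dsg2-null and 22.5, 26.3, 24.5 and 23.3 FPKM in wild-type libraries (log2 difference -0.48, SE 0.105, limma adjusted p = 0.0282). Bckdhb was no longer called when any 1 of Dsg2-null replicates 1, 2 and 3 or wild-type replicates 1, 2, 3 and 4 was left out (limma adjusted p up to 0.0817, without wild-type replicate 2). Mccc2, of leucine breakdown, measured 17.4, 17.6, 17.6 and 17.2 FPKM in Dsg2-null and 22.5, 27.4, 22 and 23.7 FPKM in wild-type libraries, nearly the same in all null libraries (log2 difference -0.43, SE 0.0934, limma adjusted p = 0.0284). Mccc2 was no longer called when any 1 of Dsg2-null replicates 1, 2, 3 and 4 or wild-type replicates 1, 2 and 4 was left out (limma adjusted p up to 0.0737, without wild-type replicate 2). Aldh6a1, of valine breakdown, measured 28.6, 39.7, 30.5 and 28 FPKM in Dsg2-null and 49.6, 39.1, 55.2 and 47.1 FPKM in wild-type libraries (log2 difference -0.58, SE 0.141, limma adjusted p = 0.0432). Aldh6a1 was no longer called when any 1 of Dsg2-null replicates 1, 3 and 4 or wild-type replicates 1, 3 and 4 was left out (limma adjusted p up to 0.111, without wild-type replicate 1). Dbt, another subunit of the dehydrogenase, fell by 0.42 (limma adjusted p = 0.0297). Dbt was no longer called when any 1 of Dsg2-null replicates 1, 2, 3 and 4 or wild-type replicates 1, 2 and 3 was left out (limma adjusted p up to 0.0889, without wild-type replicate 1). Leaving out any 1 library left 0 to 2 of the 5 called: 0 without Dsg2-null replicate 3, 2 without Dsg2-null replicates 2 or 4, and 1 without any other. Ckb, the brain-type creatine kinase, measured 43.4, 51.8, 39.8 and 35.4 FPKM in Dsg2-null and 28.6, 23.5, 26.8 and 26.2 FPKM in wild-type libraries (log2 difference 0.67, SE 0.125, limma adjusted p = 0.0149).

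Of 15 endothelial markers 1 was higher, Vwf (von Willebrand factor), at 44.1, 31.5, 37.7 and 26.7 FPKM in Dsg2-null and 21.6, 19.7, 13.6 and 17.9 FPKM in wild-type libraries (log2 difference 0.90, SE 0.177, limma adjusted p = 0.0185). Vwf was no longer called without wild-type replicate 4 (limma adjusted p = 0.0518). Over all genes, 5.24% were higher. Pecam1 and Cdh5 had log2 differences of 0.09 (limma adjusted p = 0.727) and -0.03 (limma adjusted p = 0.929), and 1 marker was lower without Dsg2-null replicate 2. Of 16 smooth muscle and pericyte markers 0 passed in limma. Of 12 epicardial and mesothelial markers 1 was higher, C3, described above, and 2 without wild-type replicate 3. The sum of this list was 115 to 219 FPKM in Dsg2-null and 41.7 to 95.3 FPKM in wild-type libraries. C3, also a complement gene, is a large part of this sum, which is therefore no separate measure of the other members. Of 6 nerve and Schwann cell markers 1 was higher, Pmp22, a myelin protein also made by fibroblasts, at 36.6, 48.3, 28 and 37.5 FPKM in Dsg2-null and 21.8, 16.4, 15.7 and 23.7 FPKM in wild-type libraries (log2 difference 0.92, SE 0.18, limma adjusted p = 0.0189). Pmp22 was no longer called when any 1 of wild-type replicates 2 and 3 was left out (limma adjusted p up to 0.0575, without wild-type replicate 2). Of 9 proliferation genes 0 passed in limma, and 4 were higher without overlap, beside 12.2% of all genes. Mki67, a marker of cycling cells, measured 1.5, 4.58, 1.85 and 2.16 FPKM in Dsg2-null and 1.17, 0.738, 0.955 and 1.15 FPKM in wild-type libraries (limma adjusted p = 0.0962).

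Outside these lists, 8 genes were among the 15 named decreases. Efnb3, an ephrin ligand, measured 12.8, 9.51, 11.3 and 11.9 FPKM in Dsg2-null and 25.1, 27.4, 25.5 and 20.3 FPKM in wild-type libraries (log2 difference -1.05, SE 0.123, limma adjusted p = 0.00206). Fbp2, the muscle fructose bisphosphatase, measured 6.68, 4.56, 7.18 and 6.13 FPKM in Dsg2-null and 13.5, 15, 12.2 and 12.1 FPKM in wild-type libraries (6.14 ± 1.14 against 13.2 ± 1.39 FPKM, means ± SD, n = 4 each, limma adjusted p = 0.00386). Maob, which oxidizes amines at the mitochondrial surface, measured 10.2, 10.2, 8.77 and 8.62 FPKM in Dsg2-null and 17.8, 20.3, 18.2 and 14.9 FPKM in wild-type libraries (log2 difference -0.84, SE 0.115, limma adjusted p = 0.00386). The groups were apart for these 3 genes. Lgals4, Ces1d and Lingo3 fell by 0.97 (limma adjusted p = 0.0283), 0.92 (limma adjusted p = 0.0396) and 0.77 (limma adjusted p = 0.0415). Lgals4 was no longer called when any 1 of Dsg2-null replicates 1, 2 and 3 or wild-type replicates 1, 3 and 4 was left out (limma adjusted p up to 0.08, without wild-type replicate 1). Ces1d was no longer called when any 1 of Dsg2-null replicates 1, 3 and 4 or wild-type replicates 1, 2, 3 and 4 was left out (limma adjusted p up to 0.103, without wild-type replicate 2). Lingo3 was no longer called when any 1 of Dsg2-null replicates 1, 2, 3 and 4 or wild-type replicates 1, 2 and 3 was left out (limma adjusted p up to 0.11, without wild-type replicate 1). The row named Zfp652 carries the identifier of another gene, so which gene it measures is uncertain. It read 23.5, 18.7, 28.9 and 24.4 FPKM in Dsg2-null and 63.5, 60.7, 30.1 and 57.5 FPKM in wild-type libraries, where wild-type replicate 3 came close to the null values (log2 difference -1.08, SE 0.229, limma adjusted p = 0.026). Zfp652 was no longer called when any 1 of Dsg2-null replicates 1, 2 and 4 or wild-type replicates 1, 2 and 4 was left out (limma adjusted p up to 0.0771, without wild-type replicate 1). Ttll1, a tubulin ligase-like gene, fell by 0.79 (limma adjusted p = 0.0165). Ttll1 was no longer called without wild-type replicate 4 (limma adjusted p = 0.0528). The one named increase outside the lists, Chil1, a chitinase-like protein of macrophages and stressed tissue, measured 3.29, 6.16, 8.34 and 3.29 FPKM in Dsg2-null and 0, 0.579, 0.16 and 0.282 FPKM in wild-type libraries, and was listed at 0 in wild-type replicate 1 (log2 difference 2.26, SE 0.264, limma adjusted p = 0.00201).

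Among the genes called in the full comparison, 44 were also called with the 3 libraries left out, 43 of them higher. Of the matrix lists, Spp1, Comp, Wisp2, Cilp, Thbs4, Postn, Ctgf, Tnc, Thbs1, Col8a2, Col16a1, Fmod, Ltbp2, Timp1, Mmp12 and Ctsk were in this set. The fibroblast, Wnt and integrin lists added Sfrp2, Frzb, Itgax and Itgb2. Without the 2 libraries with airway signal alone, the list counts of higher genes were 7 for collagens, 9 for matricellular genes, 3 for complement and 6 for lysosomal and lipid-handling macrophage genes. Without all 3 libraries these counts were 2, 9, 0 and 4. No member was then called higher among general macrophage markers, chemokines, cytokines, antigen presentation, TGF-beta ligands, resting fibroblast markers or collagen processing genes. Others in the set, outside the lists and named after their values were seen, included Nox4, an oxidase of activated fibroblasts, at 1.93, 3.92, 2.49 and 2.53 FPKM in Dsg2-null and 0.426, 0.357, 0.271 and 0.404 FPKM in wild-type libraries, and Nrg1, a growth factor for cardiomyocytes, at 8.15, 2.75, 4.31 and 4.79 FPKM in Dsg2-null and 0.893, 1.22, 0.688 and 0.353 FPKM in wild-type libraries. Limma gave log2 differences of 1.42 (limma adjusted p = 0.00194) and 1.70 (limma adjusted p = 0.00596) with all 8 libraries, and 1.31 and 2.12 with 5 (limma adjusted p = 0.0402 and 0.0356).

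**Figure D5:**
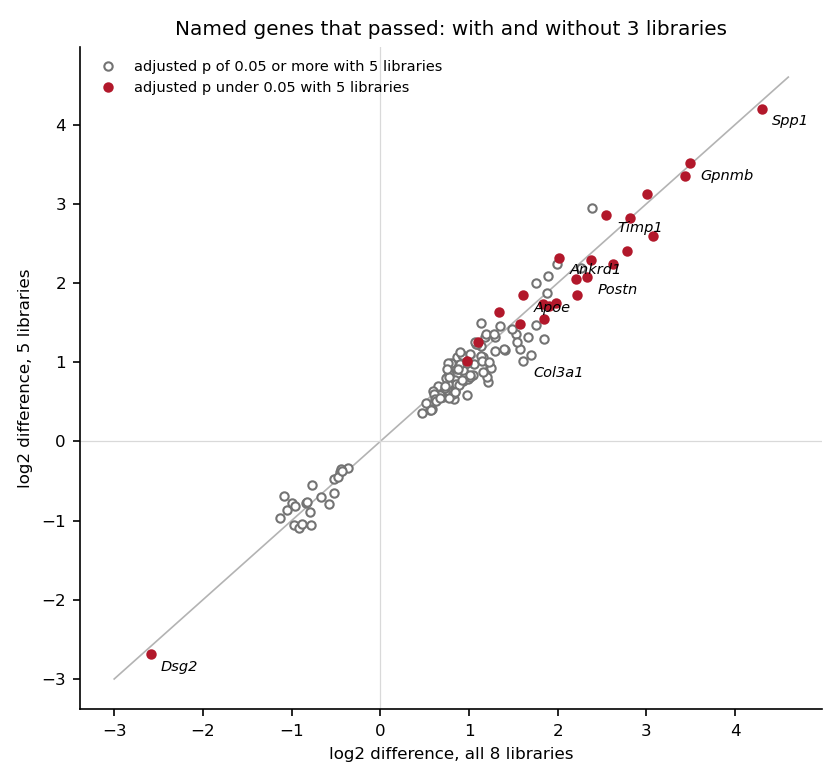
Log2 differences of 137 named genes that passed, with all 8 libraries (horizontal axis) and with 5 libraries (vertical axis, without Dsg2-null replicate 2 and wild-type replicates 1 and 2), filled where the limma adjusted p was under 0.05 with 5 libraries. All 137 have the same sign on both axes, and 24 are filled.

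Sex was balanced between genotypes. A limma interaction of genotype and labelled sex called 0 of 12574 genes, with 459 at an unadjusted p under 0.05 and a smallest adjusted p of 0.999. With 2 libraries per genotype and sex, and both libraries with airway signal from females, a difference between sexes was not detectable here.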

How the data were processed

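RNA from heart samples was sequenced in 8 libraries, 4 for each genotype, all taken at an age of 10 weeks. The deposited table gives FPKM per gene, a unit normalized for length and depth by the authors, and the submitters' processing notes name StringTie 1.3.4 and build GRCm38 without further detail. The labels give the molecule as polyA RNA and also name a ribosomal depletion kit. Read counts were not used here. In the deposited FPKM values 50.5% to 60.0% of low values of single-transcript genes lay within 0.1 of a whole multiple of 1 fragment, too few to recover reads, and the spacing corresponded to 40.7 to 53.6 fragments per FPKM in a transcript of 1 kilobase. Rows without an Ensembl identifier, 4.09% to 6.63% of summed FPKM, were left out, as were rows whose identifier and name belong to different genes when lists were matched (1078 of 1127 list genes matched).

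Values were analysed as log2(FPKM + 1), which understates changes of low genes, with limma 3.58.1 in R 4.3.3 (mean-variance trend, mean of 1 FPKM or more over the libraries in the fit, Benjamini-Hochberg adjusted p under 0.05). Python 3.11.15, numpy 2.4.6 and pandas 2.3.3 did the rest, and the fit was tested on simulated data. Correlations between libraries of a group were 0.957 to 0.978. The genes named were Dsg2, the 15 largest increases and 15 largest decreases without overlap between genotypes, the anchor genes of each of 58 lists, the 5 members of each list with the largest change that passed, and, in lists with none, the 2 with the smallest p. Agt, Agtr1a, Cilp2, Col16a1, Ctgf, Cyr61, Dbt, Fn1, Fzd1, Myc, Nkx2-5, Nov, Nox4, Nrg1, P4ha1, Pcolce2, Smad1, Smad5, Smoc2, Thbs1, Timp4, Tnc and Wisp1, and the genes of the closing paragraphs outside the lists, fell outside that rule and were chosen after their values were seen. Members and lists were chosen with earlier results of these data known. The alternatives were 20: other pseudocounts, filters and scalings, a sex term, no trend, summed duplicate rows, each library left out, and the libraries with other tissue left out. Results of the sodium channel list are not reported here.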

Additional observations from a re-analysis of the deposited data

Results flagged for a closer look

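For each value below, 1 library lay far from the other 3 of its genotype, by Dixon's test on log2(FPKM + 1). Of 496 groups of named genes tested, 26 (5.24%) stood out, and chance alone gives about 1 in 20.

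Among markers of other tissues, Scgb1a1, the club cell secretory protein, measured 532 FPKM in Dsg2-null replicate 2 (others 0 to 0.522) and 288 FPKM in wild-type replicate 2 (others 0 to 0.591). The airway list summed to 1724 FPKM in Dsg2-null replicate 2 (others 2.35 to 3.26) and 1078 FPKM in wild-type replicate 2 (others 0.698 to 3.07). In wild-type replicate 2, the cartilage genes Col2a1 at 1.44 FPKM (others listed at 0) and Acan at 1.2 FPKM (others 0.0534 to 0.0835) were also apart. Bmp10, an atrial growth factor, measured 4.64 FPKM in Dsg2-null replicate 1 (others 0 to 0.268) and 0.118 FPKM in wild-type replicate 2 (others 0 to 0.00836). The erythroid globin Hbb-bs measured 351 FPKM in wild-type replicate 4 (others 799 to 847).

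In Dsg2-null replicate 1, Lyz2 measured 105 FPKM (others 174 to 187), Ttll1 6.22 FPKM (others 10.0 to 10.4), and Cd8a was listed at 0 (others 0.0839 to 0.0953 FPKM). In Dsg2-null replicate 2, Kcnv2 measured 0.405 FPKM (others 0.839 to 0.924) and Lrrc10 91.3 FPKM (others 112 to 117). In Dsg2-null replicate 3, Cd9 measured 33.0 FPKM (others 36.5 to 37.1). In Dsg2-null replicate 4, Emilin1 measured 24.9 FPKM (others 22.5 to 22.7) and Ddit3 14.5 FPKM (others 9.97 to 10.3).

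In wild-type replicate 1, Axin2 measured 1.5 FPKM (others 2.39 to 2.55), and in wild-type replicate 2 Top2a measured 0.704 FPKM (others 2.02 to 2.35). In wild-type replicate 3, Zfp652 measured 30.1 FPKM (others 57.5 to 63.5), Kcnh2 27.1 FPKM (others 21.1 to 21.8) and Ppm1k 24.7 FPKM (others 19.4 to 20). In wild-type replicate 4, the class II genes H2-Ab1 and H2-Eb1 measured 13.9 FPKM (others 25.8 to 27.9) and 13.4 FPKM (others 25.4 to 26.7). The same library had Ppargc1a, the coactivator of mitochondrial genes, at 47.3 FPKM (others 16.8 to 18.4), Acta2 at 132 FPKM (others 79.3 to 83.6), Mfap5 at 19.7 FPKM (others 8.99 to 9.57) and Rxrg at 32.1 FPKM (others 34.6 to 35.1).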

How the results depend on the processing

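No paired analysis was possible because the labels give no replicate numbers, those used here follow accession order, and only 1 title code (ML) is shared between genotypes. The log2 difference of Dsg2 stayed between -2.94 and -2.52 over all 20 alternatives, and no called gene changed sign. Sign changes occurred for 26 named genes that did not pass (smallest limma adjusted p = 0.404) and for 11 list medians, those of the sarcomere and intercalated disc among them. The 731 changed genes (659 higher, 72 lower) became 359 (325, 34) without a filter on low values, 457 with a filter at 5 FPKM (404 higher), 201 (187, 14) without the 2 libraries with airway signal, 377 (344, 33) without the wild-type library with few atrial markers, and 54 (52, 2) without all 3. Median-of-ratios scaling gave 402 higher and 152 lower, and quantile normalization 344 and 162. With each library left out in turn the counts ran from 377 to 626 changed, 344 to 572 higher and 32 to 61 lower, and Dsg2 from -2.66 to -2.52. Genes called in every single omission numbered 300. Of 138 named genes that passed and were not Dsg2, 113 lost the call without the 3 libraries, 73 without the airway pair and 62 without a filter, where 26727 genes shared the adjustment. Interaction with sex gave 0 genes by limma in its alternatives with a pseudocount of 0.1, a filter at 5 FPKM and median-of-ratios scaling. Without read counts the precision of low FPKM values is unknown.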

Other observations

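The 44 genes called both with and without the 3 libraries that stood apart in airway or atrial markers included some outside the lists, named here after their values were seen. Several encode secreted or matrix-bound proteins. Abi3bp, a matrix protein that binds collagen, measured 15.3, 24.9, 13.7 and 15.6 FPKM in Dsg2-null and 4.21, 4.49, 5.58 and 4.48 FPKM in wild-type libraries (log2 difference 1.66, SE 0.174, limma adjusted p = 0.00136). Svep1, a large adhesion protein that binds integrin, measured 11.2, 15.4, 13.9 and 9.77 FPKM in Dsg2-null and 3.92, 3.59, 4.23 and 4.17 FPKM in wild-type libraries (log2 difference 1.43, SE 0.14, limma adjusted p = 0.00107). Ptn (pleiotrophin), a heparin-binding growth factor, measured 7.49, 16.7, 6.52 and 9.55 FPKM in Dsg2-null and 0.635, 1.38, 1.39 and 2.1 FPKM in wild-type libraries (log2 difference 2.17, SE 0.275, limma adjusted p = 0.00264). Itgbl1, Pamr1 and Rcn3 had log2 differences of 1.72 (limma adjusted p = 0.00159), 1.39 (limma adjusted p = 0.00443) and 1.12 (limma adjusted p = 0.00214). Among these 6 genes, no Dsg2-null library overlapped a wild-type library.

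The same set held myeloid genes outside the macrophage lists. Mpeg1 (perforin-2), a pore-forming protein of macrophages, measured 7.82, 11.7, 9.52 and 8.87 FPKM in Dsg2-null and 3.97, 1.98, 3.42 and 2.48 FPKM in wild-type libraries (log2 difference 1.42, SE 0.178, limma adjusted p = 0.00253). Capg, an actin-capping protein abundant in macrophages, measured 15.5, 20.4, 15.2 and 16.9 FPKM in Dsg2-null and 5.79, 5.61, 6.73 and 6.1 FPKM in wild-type libraries (log2 difference 1.34, SE 0.115, limma adjusted p = 0.000554). These values were not tested against any count of cells.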
